A study of Panagrellus redivivus with 189 samples.

Results

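The features described here are 98 of the 1566 rows used from a count table of single blastomeres of *Panagrellus redivivus*, a free-living nematode. They were chosen for a level that is higher in gastrula than at 6 to 10 cells. Levels are CPM, summed counts scaled to a common total, outside 6 dominant rows, which are row-789, row-955, row-956, row-1147, row-1149 and row-1177. The gastrula sum covers sample numbers 278 to 350, the sum of 6 to 10 cells covers 201 to 250, and the sum of 1 to 3 cells covers 1 to 9. A row was a member if it had at least 100 CPM in the gastrula sum and at least 3 times its level in the sum of 6 to 10 cells. Rows with both at least 400 CPM at 1 to 3 cells and a 4-fold or larger fall by 6 to 10 cells were kept out, which removed 15 rows. The copy of the table used here ends inside a row, so every share and CPM is of the counts in the rows used and not of all RNA in a library. The members are 6.26% of the rows used, and 515 rows in all had at least 100 CPM in gastrula. The rows carry no gene identifier, so members are called by row number and no function can be given for any of them.

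Blastomeres were separated by hand after the egg shell was removed, and each received a barcode in CEL-Seq2, a 3′-end RNA sequencing method. The labels give no strain, treatment or mutation for any embryo. There were 9 libraries of 5 embryos at 1 to 3 cells, 57 libraries of 9 embryos at 6 to 10 cells, 33 libraries of 3 embryos at 12 or 14 cells, 17 libraries of 1 20-cell embryo, 33 of 1 early gastrula embryo and 40 of 1 late gastrula embryo. The rule read 50 of the 57 libraries of 6 to 10 cells, all but those of 8-cell embryo 1. The embryo is the replicate. Each of the last 3 stages is therefore a single animal, and the libraries of 1 embryo are not replicates of a stage.

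In nematode embryos the first divisions run mainly on RNA that the mother loaded into the egg. Transcription from the embryo's own genome starts during cleavage and takes over in the somatic lineages first. At gastrulation the founder cells of gut, muscle and germ line move inside, and lineages begin to express genes that set them apart. This order is best known from *Caenorhabditis elegans*.

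Libraries held 14 to 44125 counts outside the 6 rows (median 5174), and embryos held 4992 to 380620. Sample numbers form a lower series of 39 libraries in 8 embryos and a higher series of 150 libraries in 12 embryos. The 6 dominant rows took a median of 5.09% of a library's counts in the higher series and 72.3% in the lower. The 1 to 3 cell embryos, 8-cell embryo 1, 12-cell embryo 1 and the 14-cell embryo belong to the lower series, and the 20-cell embryo, both gastrula embryos and 12-cell embryo 2 to the higher. In 12-cell embryo 1 a single count is worth 111.3 CPM and in the 14-cell embryo 90.2 CPM, while it is worth 10.6 CPM in 12-cell embryo 2, 7.18 in the 20-cell embryo, 6.78 in early and 2.63 in late gastrula. In 21 of the 40 late gastrula libraries a digit stands before the cell name within the title, as it does in library 3r17 of the 20-cell embryo, and what it stands for is not stated. It could be a number of pooled cells, in which case those libraries are not single cells. For late gastrula, the member share, the count of members lower than in early gastrula and the median share of libraries are given with and without them. Late gastrula levels, library counts and correlations of single members include them. All intervals given are at the 95% level. Those of levels and ratios cover counting error only, and those of shares of libraries cover the sampling of libraries and not missed detection.

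The members took a small share of these counts in cleavage embryos and a larger share in gastrula. Their share of the counts was 2.87% to 4.29% per embryo at 1 to 3 cells and 3.69% to 6.95% per embryo at 6 to 10 cells. Of the embryos with 12 or 14 cells, 12-cell embryo 1 had 10.1%, 12-cell embryo 2 had 3.47% and the 14-cell embryo had 9.82%. The share was 15.5% in the 20-cell embryo, 22.6% in early gastrula and 29.5% in late gastrula. The ends of this series are what the rule selected on. Of the 4 embryos of 12 to 20 cells, which the rule did not read, 12-cell embryo 2 lay below the embryos of 6 to 10 cells, and the other 3 lay between those and gastrula. In a sum over the cells of an embryo, more cells with a member and more of its RNA per cell cannot be told apart.

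**Figure D1:**
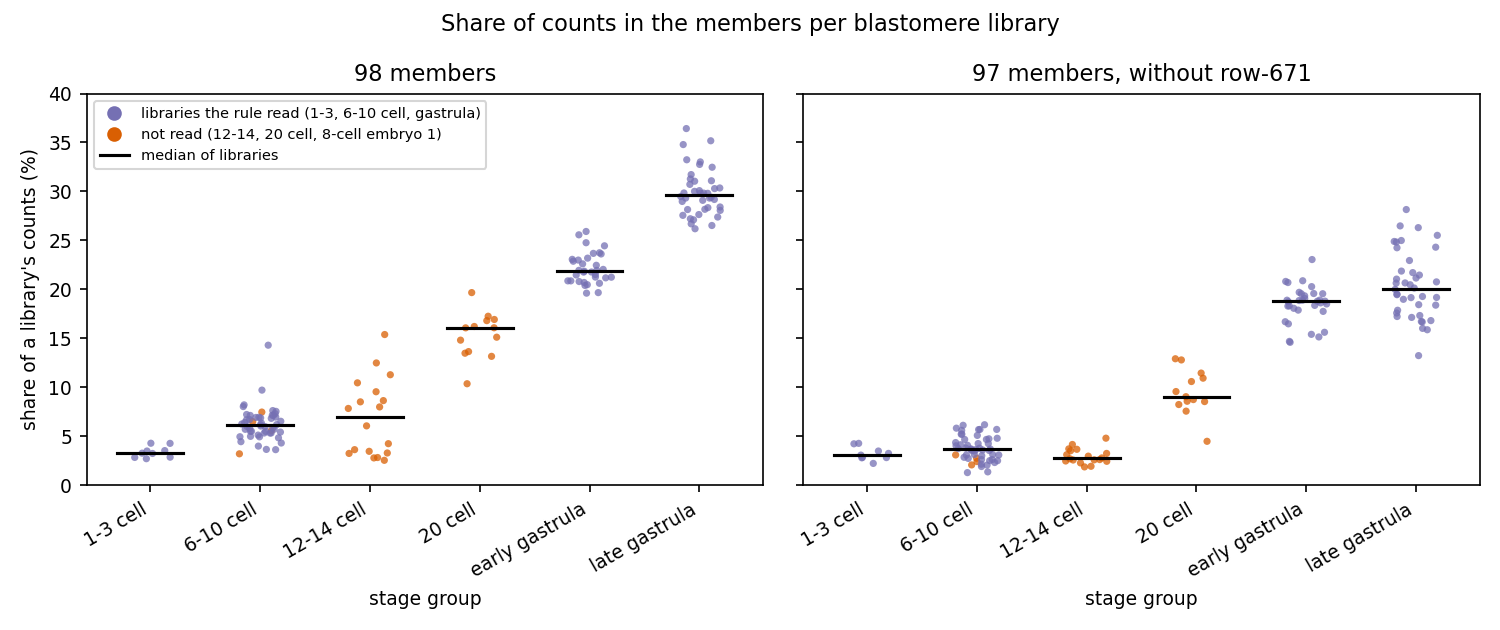
Share of a library's counts (%, vertical axis) held by all 98 members and by the members without row-671, for libraries of at least 1000 counts in 6 stage groups. Each point is 1 library and each line the median of libraries. Without row-671 the libraries of 12 to 14 cells lie with those of 6 to 10 cells, and those of the 20-cell embryo lie mostly above them.

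Much of the difference among the 3 embryos of 12 and 14 cells was row-671, the most abundant member. The lower series gave 66140 CPM of row-671 for 12-cell embryo 1 and 70424 CPM for the 14-cell embryo, while 12-cell embryo 2 of the higher series had 7049 CPM. Without it the members held 3.53%, 2.77% and 2.78% of the counts in 12-cell embryo 1, 12-cell embryo 2 and the 14-cell embryo. The share without row-671 was then 10.2% in the 20-cell embryo, 17.7% in early gastrula and 20.1% in late gastrula. Leaving row-671 out, the 3 embryos of 12 and 14 cells thus had shares within the 1.94% to 5.56% of the embryos of 6 to 10 cells.

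Single libraries gave the same picture for the last 3 embryos. The member share, row-671 included, ran from 10.4% to 19.7% over the 17 libraries of the 20-cell embryo, 19.6% to 25.9% over the 33 of early gastrula and 26.2% to 36.4% over the 40 of late gastrula. With row-671 included, every late gastrula library lay above every early gastrula library, and the 20-cell and early gastrula ranges overlapped slightly. Over libraries of at least 2000 counts the median of row-671 was 28025 CPM in early and 100640 CPM in late gastrula. Ranges of single libraries without row-671 are not given, and without it the shares of the early and late embryos lay closer. In late gastrula the libraries with a digit in the title had a member share of 29.4% and those without one 29.6%. Library 3r17 held 30.8% of the counts of the 20-cell embryo, and the member share was 15.2% without it.

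**Figure D2:**
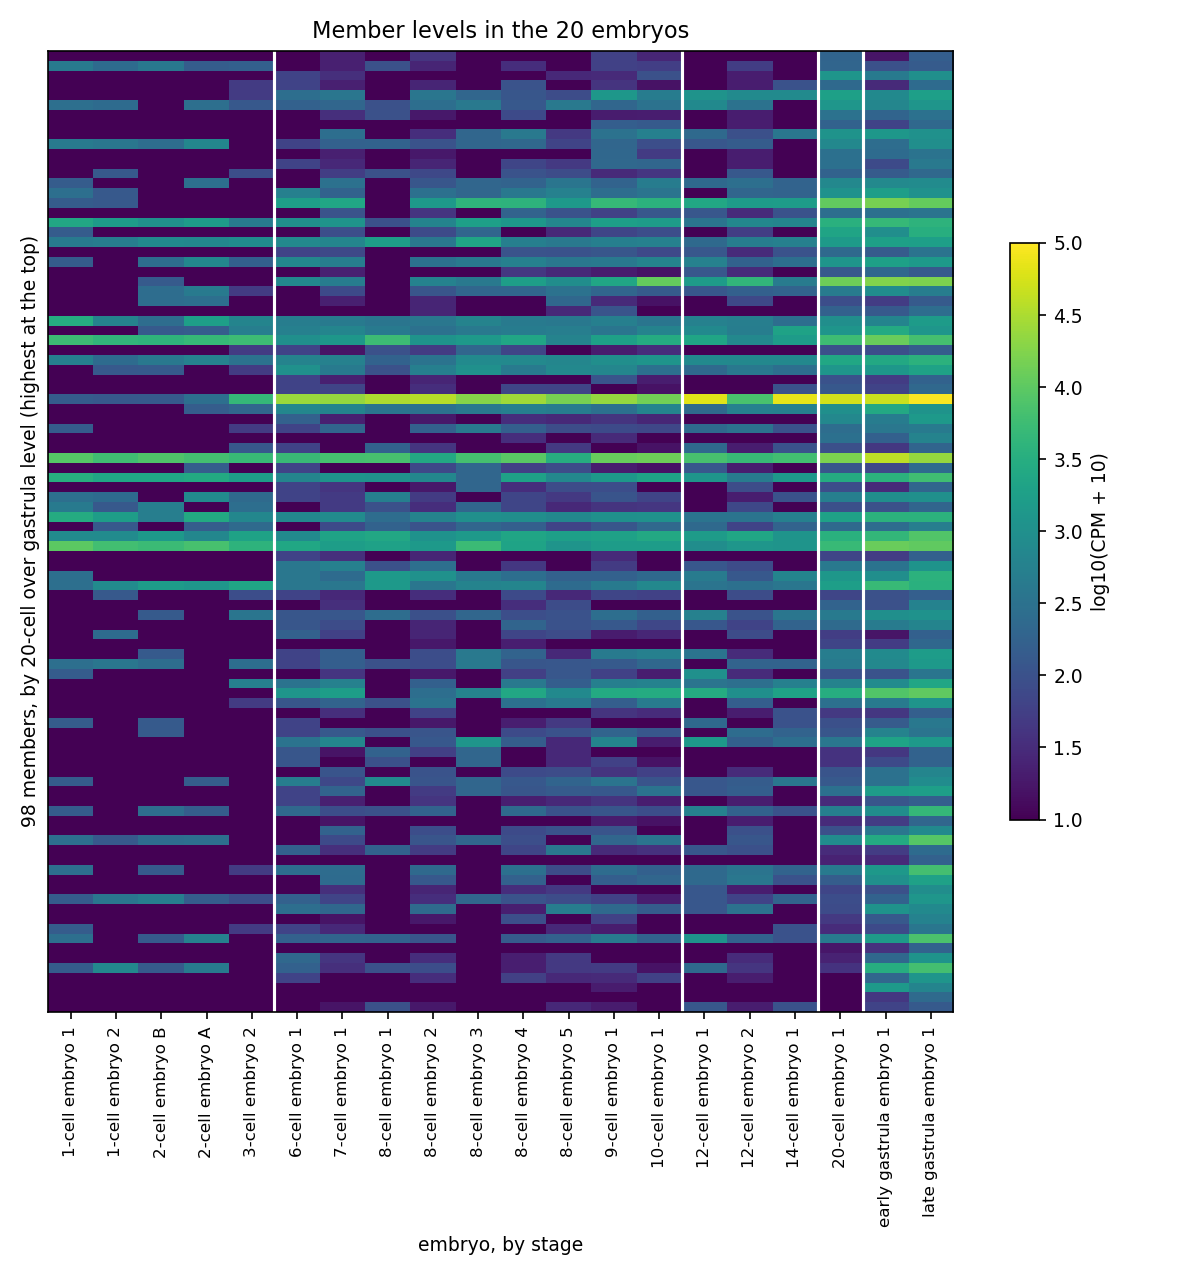
Level of each of the 98 members as log10(CPM + 10) in the 20 embryos, which run by stage from left to right with white lines between stage groups. Members are ordered by the ratio of their 20-cell to their gastrula level. The top of the map is already bright in the 20-cell column, and the 15 members under 10% of their gastrula level at 20 cells form the bottom of the map.

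The gastrula level of the members ran from 102.3 CPM to 81168 CPM with a median of 734 CPM. It was at least 1000 CPM for 38 members, at least 10000 CPM for 5, and under 200 CPM for 28. Over the level at 6 to 10 cells the median fold was 5.60 among members with a count there, and 33 members were at least 10-fold higher or had no count there. The 3 with no count there are row-192, row-525 and row-843. These values are those the rule read and carry no test. The members nearest inside the 3-fold limit were row-1407, row-695 and row-715 at 3.01-fold, 3.06-fold and 3.06-fold, and the nearest rows outside it were row-719, row-1418 and row-1388 at 2.96-fold, 2.89-fold and 2.84-fold. Of the 98 members, 93 met both limits in the late gastrula embryo alone, 51 in the early gastrula embryo alone and 46 in each. The late embryo holds 380620 of the counts outside the 6 rows and the early one 147457, and the rule gave 58 rows without the late embryo and 110 without the early one. Counts are of 3′ ends and transcript lengths are not known for the rows, so an order among members is an order of counts.

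The members with the highest gastrula levels were found in nearly every library of the late gastrula embryo and, row-399 apart, of the early one, and most of them were also counted in cleavage embryos. Row-434 had 5005 to 8699 CPM in the embryos of 1 to 3 cells and 2626 to 13195 CPM at 6 to 10 cells (median 6611). It stood at 16445 CPM in the 20-cell embryo, 39449 CPM in early gastrula and 23202 CPM in late gastrula. Row-114 and row-175 were at or near 0 at 1 to 3 cells, with at most 1 count in an embryo. Row-114 had 0 to 11192 CPM at 6 to 10 cells (median 707), 13177 CPM at 20 cells, 17314 CPM in early and 16281 CPM in late gastrula. Row-175 had 0 to 4690 CPM at 6 to 10 cells (median 2336), 10822 CPM at 20 cells, 14987 CPM in early and 11395 CPM in late gastrula. The 3 embryos of 12 and 14 cells had 451 to 4302 CPM of row-114 and 1544 to 2450 CPM of row-175.

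Row-557 and row-1426 had lower medians at 6 to 10 cells than at 1 to 3 cells. Row-557 was at 3910 to 9804 CPM in the embryos of 1 to 3 cells, at a median of 1691 CPM at 6 to 10 cells, and at 891, 1256 and 1172 CPM in 12-cell embryo 1, 12-cell embryo 2 and the 14-cell embryo. It then stood at 5012 CPM at 20 cells, 12160 CPM in early and 10407 CPM in late gastrula. Row-1426 followed a similar course, with 3974 to 5523 CPM at 1 to 3 cells, a median of 1402 CPM at 6 to 10 cells, 2227, 713.4 and 1533 CPM in 12-cell embryo 1, 12-cell embryo 2 and the 14-cell embryo, 5731 CPM at 20 cells, 12180 CPM in early and 6508 CPM in late gastrula. In 8-cell embryo 1, the only embryo of 6 to 10 cells in the lower series, row-1426 had 5460 CPM, within its range at 1 to 3 cells, and row-557 had 1907 CPM. Across the list, 23 members had a higher level in the sum of 1 to 3 cells than in that of 6 to 10 cells, 11 had at least 400 CPM at 1 to 3 cells, and 43 had no count there. The levels at 1 to 3 cells come from the lower series and the gastrula levels from the higher, and the stage and the series cannot be told apart in that pair. The levels at 6 to 10 cells come from the higher series in 8 of 9 embryos, so the same holds for most of that comparison.

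Row-816 had no count at 1 to 3 cells, 0 to 2889 CPM at 6 to 10 cells (median 1196), 3124 CPM at 20 cells, 8335 CPM in early and 10388 CPM in late gastrula. Row-307 was counted in every embryo, with 703 to 1994 CPM at 1 to 3 cells, 815 to 2596 CPM at 6 to 10 cells, 3411 CPM at 20 cells, 4435 CPM in early and 8100 CPM in late gastrula. The remaining pair of the 10 highest, row-569 and row-399, came up late. Row-569 had 883 CPM at 20 cells, 2733 CPM in early and 8773 CPM in late gastrula, and row-399 had 431, 1499 and 7454 CPM. Neither passed 432 CPM in any embryo of 6 to 10 cells, and 12-cell embryo 1 had 1113 CPM of row-399, from 10 counts.

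Onset was read in the embryos that the rule did not use, but against the gastrula level that it did use. The rule holds a member to at most 33.3% of its gastrula level in the sum of 6 to 10 cells, where the median member stood at 17.53% and the median of the other rows with at least 100 CPM in gastrula at 111.02%. The gap between members and other rows in an embryo like those of 6 to 10 cells is therefore largely fixed by the rule, and the shares of other rows below are given for scale. In the 20-cell embryo 49 of the 98 members had reached at least 50% of their gastrula level, against 81.9% of all 515 rows with at least 100 CPM in gastrula. In 12-cell embryo 2, the embryo of this group in the same number series, 8 members had reached it, against 58.1% of those rows. Of the members, 44 reached it at 20 cells but not in 12-cell embryo 2, 5 in both and 46 in neither. The 5, named after their values were seen, are row-15, row-425, row-820, row-989 and row-1521. The median member stood at 49.8% of its gastrula level in the 20-cell embryo and at 8.34% in 12-cell embryo 2. Among the other rows with at least 100 CPM in gastrula these medians were 115.4% and 91.7%. The median member stood at 8.17% in 12-cell embryo 1 and at 0.779% in the 14-cell embryo, where the worth of a single count limits low values.

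In the 20-cell embryo 69 of the 98 members (70.4%) lay above all 3 embryos of 12 and 14 cells. The same held for 42.3% of rows with at least 100 CPM in gastrula. Only row-1519, without a count at 20 cells, lay below all 3, against 18.3% of those rows. In each of those 3 embryos row-1519 had 1 count. The rule held members low at an earlier stage relative to gastrula, which favours a rise in between. The differences from those rows are therefore partly built in and are a description. A gradual climb was the pattern of 35 members, whose level was higher at each step over 12-cell embryo 2, the 20-cell embryo, early gastrula and late gastrula. That order, whose gastrula levels the rule used, held for 12.6% of the rows with at least 100 CPM in gastrula. In 33 members the 20-cell level was above the early gastrula level, against 60% of those rows, and 26 of the 33 were at least 2-fold higher in late than in early gastrula. A low early gastrula level favours both, so this overlap is partly built in and is a description.

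The members furthest along at 20 cells were row-258, row-1450, row-1518, row-1521 and row-987, at 176.1%, 162.5%, 146.5%, 123.7% and 123.7% of their gastrula level. Row-1518 had 1206 CPM in the 20-cell embryo, against 0, 10.6 and 0 CPM in 12-cell embryo 1, 12-cell embryo 2 and the 14-cell embryo, and it had 420.5 CPM in early and 980.0 CPM in late gastrula. Row-1521 was counted earlier, with 799 to 1113 CPM in the embryos of 12 and 14 cells, 1860 CPM at 20 cells, 779.9 CPM in early and 1784 CPM in late gastrula. Both rows had a lower level in early gastrula than in the embryos on either side. In all, 8 members were at or above their gastrula level at 20 cells, while the median of the other rows with at least 100 CPM in gastrula lay above it.

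At the other end, 15 members were under 10% of their gastrula level at 20 cells, and 4 of them, row-585, row-1028, row-525 and row-1519, had no count in the 17 libraries. The share of other rows under that limit is not given, so these counts describe the list alone. No count among those of the 20-cell embryo allows a level of up to 21.5 CPM, the worth of 3 counts, and 4 of its 17 libraries hold only 207 to 636 counts. Row-585 was the sharpest case. It had 0 counts in the 20-cell embryo, in the 3 embryos of 12 and 14 cells and in those of 1 to 3 cells, and at 6 to 10 cells it was counted in 1 of 9 embryos at 9.81 CPM. Late gastrula had 633 CPM of it (interval 556 to 718.4) and early gastrula 1431 CPM (1244 to 1638). Row-352 had 28.7 CPM at 20 cells, from 4 counts in 1 library, 3092 CPM in early and 6358 CPM in late gastrula. In the embryos of 12 and 14 cells it had at most 223 CPM and at 1 to 3 cells at most 727 CPM. Row-1028 and row-525 were still low in early gastrula, with 197 and 33.9 CPM there and 1188 and 229 CPM in late gastrula. The early level of row-525 rested on 5 counts, and its ratio of late to early had a counting interval of 2.78 to 21.3. Row-1028 was not new at gastrula, since it was also counted at 12 or 14 cells.

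The 20-cell embryo was set against the 3 embryos of 12 and 14 cells with edgeR's quasi-likelihood test on embryo sums, in a fit of all 20 embryos in 5 stage groups. Early and late gastrula were joined in 1 of these groups. The spread in the fit therefore includes differences between stages within a group, and not only between embryos of the same stage. Of 604 rows that passed the filter on low counts, 74 were members. No row was called at a Benjamini-Hochberg adjusted p under 0.05, which is 0% higher and 0% lower over all rows and 0 members in either direction. At an unadjusted p under 0.05, 25 rows were higher (4.14%) and 12 lower (1.99%), and of these 19 and 0 were members. DESeq2 also called 0, with 20 rows higher and 32 lower at an unadjusted p under 0.05. Of these 12 and 0 were members. The 20-cell stage is 1 embryo, which is assumed to vary like the other groups. The rule chose members for a higher level in gastrula than in earlier embryos, which favours rises over falls among them. The splits of members into 19 and 0 and into 12 and 0 are therefore partly built in. The fit also took its spread in part from embryos that the rule read.

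Without the filter 1369 rows and all 98 members were tested, and 3 members were called higher, which were the only rows called higher (0.219% of rows). They were row-200, row-1258 and row-1518, of which the first 2 are named after their values were seen. Row-200 had 2190 CPM in the 20-cell embryo, against 0, 42.6 and 0 CPM in 12-cell embryo 1, 12-cell embryo 2 and the 14-cell embryo. Row-1258 had 718.1 CPM in the 20-cell embryo and no count in those 3 embryos. The 20-cell embryo lay above the 3 others for each of these rows. The log2 differences of row-200, row-1258 and row-1518 without the filter were 6.06, 8.77 and 6.87, with adjusted p of 0.00445, 0.00785 and 0.00785 in edgeR. With the filter the log2 differences were 5.78, 8.71 and 6.61, with adjusted p of 0.0867, 0.0867 and 0.128 in edgeR. Over the settings that kept the filter, the adjusted p ran from 0.0631 to 0.422 for row-200, 0.0676 to 0.603 for row-1258 and 0.0763 to 0.603 for row-1518 in edgeR or DESeq2. The fitted size for row-1258 depends on the prior count, since it had no count at 12 and 14 cells.

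Without the filter, 30 of the 98 members were higher in the 20-cell embryo at an unadjusted p under 0.05, against 3.94% of rows, and 1, row-1519, was lower, against 2.41% of rows. The median log2 difference was 1.64 over the 98 members and 0 over all rows tested. With the number series as a term in the filtered fit edgeR called 0 rows. At an unadjusted p under 0.05 that fit had 29 rows higher and 68 lower, and of these 11 and 0 were members. Without the term 19 of the 74 members in the filtered fit were higher at that limit. The median log2 difference with the term was 1.00 over the members and -0.544 over all rows. Without the term these medians were 1.37 and -0.0145. The rule chose members for a higher level in gastrula than in earlier embryos, which favours a rise at 20 cells. The excess of members among higher rows, with or without the filter, is therefore partly built in and is a description. Without the filter the rows tested also included rows under 100 CPM in gastrula, so they were not a matched background for the members.

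Late and early gastrula were each 1 embryo, so their difference has no replicate check and no test. Of the 98 members, 55 (56.1%) were at least 2-fold higher in late gastrula, against 27.9% of the 544 rows with at least 100 CPM in either embryo, and 3 were at least 2-fold lower, against 9.93%. Without the late libraries that have a digit in the title 6 were at least 2-fold lower. The rule used both embryos, and the late one holds most of their counts, so these shares are a description of the list. Leaving out each gastrula library in turn gave 51 to 57 members at least 2-fold higher and 1 to 4 at least 2-fold lower. Of the 57 members whose median library was above 0 in both embryos, 20 were at least 2-fold higher by sums and 19 by the ratio of median libraries. The median member was 2.21-fold higher in late gastrula, and the median of the 544 rows was 1.20-fold. The other 40 members were within 2-fold. Among the 38 members of at least 1000 CPM, 12 were at least 2-fold higher in late gastrula and 2 at least 2-fold lower. Most of the 55 members at least 2-fold higher thus lay under 1000 CPM. No share of other rows split by level is given beside these counts.

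**Figure D3:**
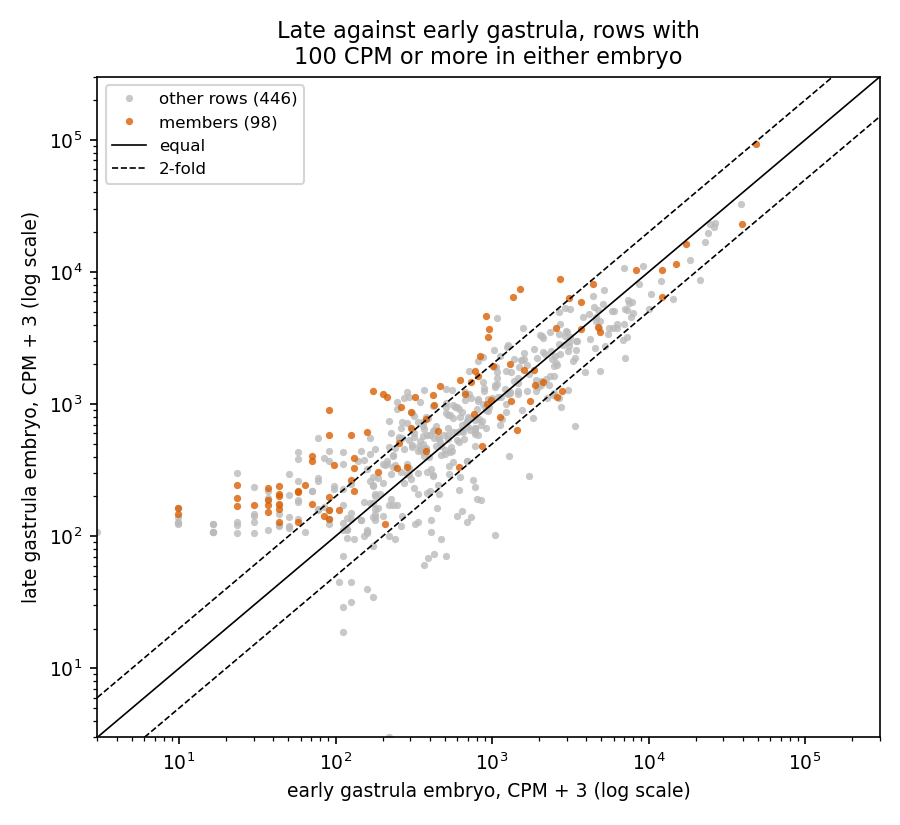
Level in the late gastrula embryo against the early gastrula embryo, as CPM + 3 on log axes, for 544 rows with at least 100 CPM in either. Members lie mostly above the line of equal levels at low early gastrula levels and close to it at high levels. Any row drawn with under 100 CPM in early gastrula must lie above the line, whether or not it is a member.

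The largest ratios rested on few early counts. Row-888 had 61 counts in late and 1 in early gastrula, a ratio of 23.6 with a counting interval of 4.09 to 949. Row-258 had 55 and 1, a ratio of 21.3 (3.67 to 857), and row-987 had 92 and 3, a ratio of 11.9 (3.94 to 58.7). Without the early library r13 the ratio of row-987 was 34.5. Row-593 had 904 CPM in late and 88.2 CPM in early gastrula, a ratio of 10.3 (5.92 to 19.5), but its 13 early counts lay in 3 libraries. Its ratio was 32.2 without the early library r13 and 6.13 without the late library 2r20. Without the late library 2r33 the ratio of row-258 was 13.2. Row-1096 had 1256 CPM in late and 169.5 CPM in early gastrula, a ratio of 7.41 (4.96 to 11.6) that ran from 5.97 to 8.69 without 1 library at a time.

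Among abundant members, row-399 had 7454 CPM (interval 7182 to 7733) in late and 1499 CPM (1308 to 1710) in early gastrula, a ratio of 4.97. Row-753 and row-591, chosen after their values were seen, had ratios of 5.04 and 4.76. Row-753 had 4614 CPM in late and 916 CPM in early gastrula, and row-591 had 6424 CPM in late and 1350 CPM in early gastrula. Row-671 had 93789 CPM (92819 to 94767) in late and 48590 CPM (47472 to 49729) in early gastrula, a ratio of 1.93. This ratio depends on summing, since the early libraries ran from 13488 to 93038 CPM and the late ones from 21129 to 179715 CPM. The median library had 100640 CPM in late and 28025 CPM in early gastrula, a ratio of 3.59, and without the early library r22 the ratio of sums was 2.14. For row-399 the median libraries gave a ratio of 9.37.

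The members at least 2-fold lower in late gastrula by sums were row-718, row-585 and row-717, and each lost that call without 1 early library. Row-718 had 1122 CPM (interval 1018 to 1233) in late and 2611 CPM (2357 to 2885) in early gastrula, and row-717 had 1248 CPM (1138 to 1365) in late and 2801 CPM (2537 to 3084) in early gastrula. Without library r22 the ratios were 0.55 for row-718 and 0.53 for row-717. The median library of row-717 had 1249 CPM in late and 1152 CPM in early gastrula, a ratio of 1.08 that turns the direction, and the median libraries of row-718 gave 0.67. For row-585 libraries r9 and r4 held 61.1% of the early counts. Its ratio was 0.62 without r9, and without both late gastrula had 633 CPM and early gastrula 601 CPM, a ratio of 1.05. Row-717 and row-718 stand next to each other in the table. Their summed levels were alike in early and in late gastrula, and were 1206 and 984 CPM at 20 cells. The next lowest ratios were those of row-1426 at 0.534 and row-673 at 0.542, and row-434 had a ratio of 0.588.

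Libraries of an embryo were compared at a depth of 2000 counts, by the expected share of libraries with at least 1 count of a member after thinning. Libraries under 2000 counts were left out, which kept 8 of 9, 46 of 57, 10 of 33, 13 of 17, 29 of 33 and 38 of 40 libraries over the 6 groups from 1 to 3 cells to late gastrula. The median member was expected in 3.93% of libraries at 1 to 3 cells, 11.4% at 6 to 10 cells, 13.4% at 12 to 14 cells, 31.5% at 20 cells, 44.4% in early gastrula and 62.9% in late gastrula. The other rows with at least 100 CPM in gastrula had medians of 51.9%, 75.9%, 68.4%, 79.5%, 64.2% and 68.4% in the same order. Without thinning the medians of the members were 88.8% in late and 62.1% in early gastrula, and thinned to 1000 counts they were 42.6% and 26.4%. No cell type that should lack a member can be named in these files, so a background of free RNA was not measured.

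**Figure D4:**
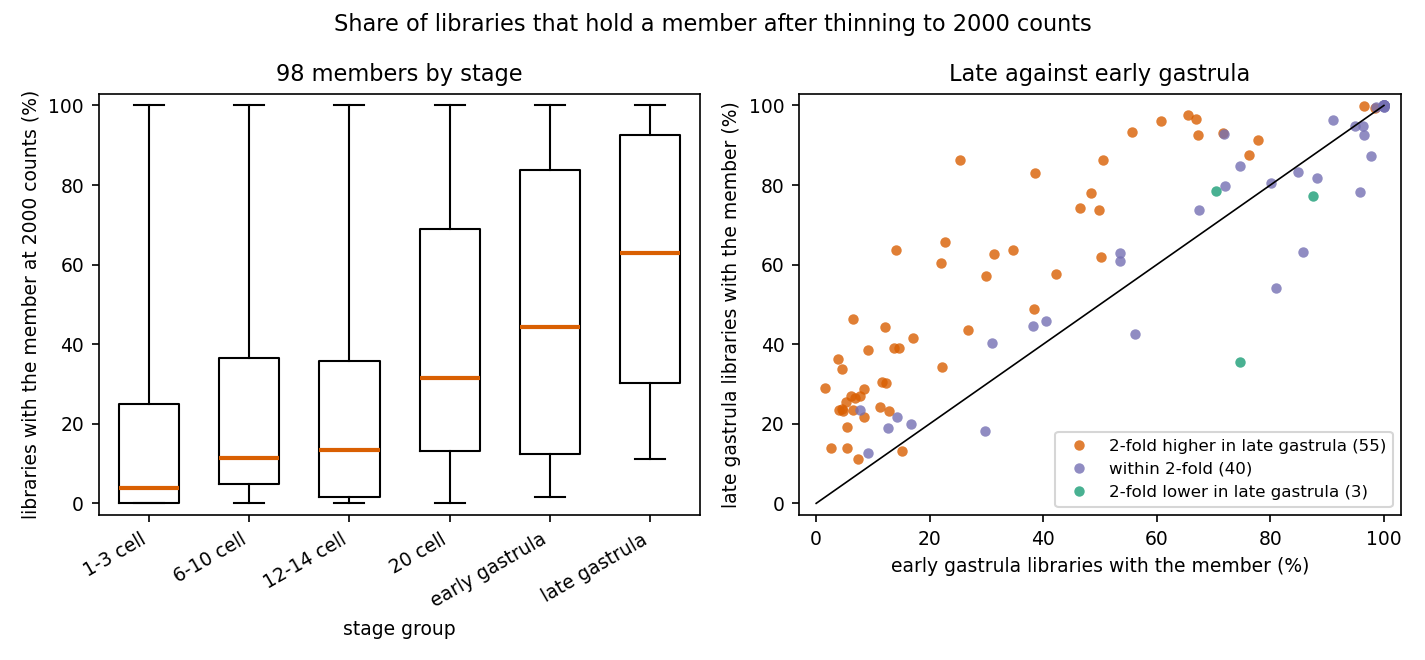
Left, expected share of libraries (%) that hold a member after thinning to 2000 counts, over the 98 members in 6 stage groups, with boxes for quartiles, orange lines for medians and whiskers for the full range. Right, the same share in late against early gastrula, where members at least 2-fold higher in late gastrula lie mostly above the line of equal shares.

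In late gastrula 27 of the 98 members were expected in at least 90% of libraries, against 28.3% of rows with at least 100 CPM in gastrula, and 0 in under 10%, against 0% of those rows. In early gastrula 21 members were in at least 90%, against 27.2% of those rows, and 21 in under 10%, against 7.77%. At 20 cells 13 were in at least 90%, against 32.2%, and 19 in under 10%, against 5.63%. Row-671, row-434, row-114, row-557 and row-816 were the broadest by the rule for named rows, at 100% of libraries in late and in early gastrula, and row-399 was expected in 96.1% of late and 60.8% of early libraries. Row-258, row-1519, row-256, row-473 and row-1037 were the narrowest, at 11.1% to 19.3% of late and 2.60% to 9.18% of early gastrula libraries. These 5 have levels of 126.1 to 204.9 CPM in late gastrula, so a library thinned to 2000 counts would hold under 1 count of them on average.

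At a fixed depth the share of libraries follows the level, so the shares of members grouped by their ratio describe that choice. The 55 members at least 2-fold higher in late gastrula had a median of 43.6% of late and 15.2% of early libraries. The 40 within 2-fold had 84.1% of late and 86.98% of early libraries. At 20 cells the first set stood at a median of 34.4% of the gastrula level and the second at 66.9%. In late gastrula the median member was expected in 64.7% of the libraries with a digit in the title and in 63.7% of those without one, so the values were close.

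Row-352 was counted in every gastrula library after being nearly absent at 20 cells. It had a count in 40 of 40 late libraries (interval 91.2% to 100%) and 33 of 33 early libraries (89.4% to 100%), against 1 of 17 at 20 cells (0.149% to 28.7%). Its library level ran from 1070 to 15432 CPM in late gastrula (median 6065, 38 libraries of at least 2000 counts) and from 738 to 8158 CPM in early gastrula (median 2967, 29 libraries). Other late members had a count in fewer early gastrula libraries, at the depth deposited and without thinning. Late libraries were deeper on the whole than early ones, so these counts of libraries also follow depth and level. Row-1028 had a count in 35 of 40 late and 10 of 33 early libraries, and row-1096 in 40 and 14. Row-585 went the other way, with 23 of 40 late libraries (40.9% to 72.96%) and 29 of 33 early ones (71.8% to 96.6%). In early gastrula 2 libraries stood far above the rest for row-585, r9 at 15869 CPM and r4 at 9203 CPM, and the next was r26 at 1610 CPM. In late gastrula its highest library, 2r19, had 5338 CPM, and libraries r14, 4r38 and 4r40 followed at 4251, 3391 and 3290 CPM.

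**Figure D5:**
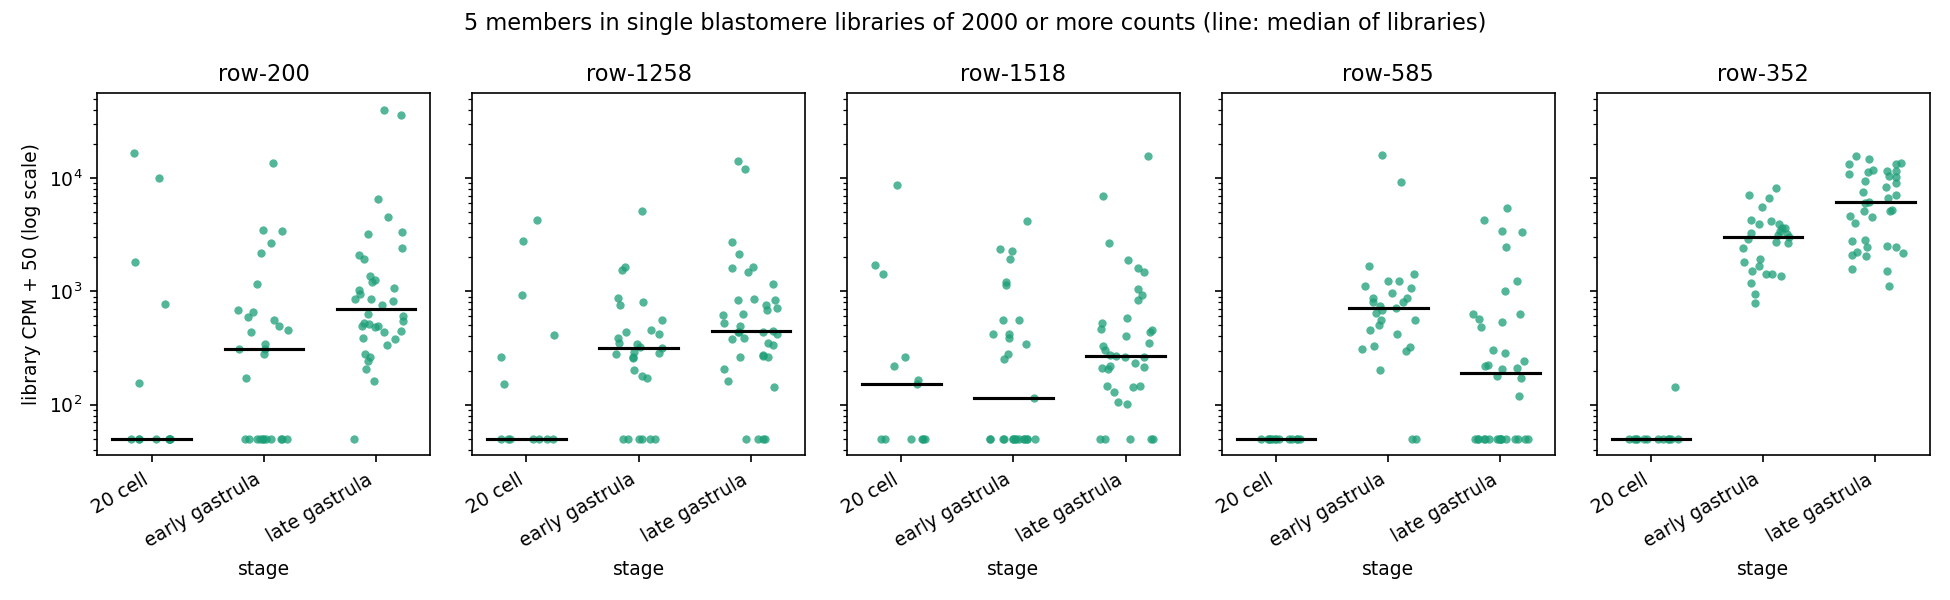
Level of 5 members in single libraries of at least 2000 counts, as CPM + 50 on a log axis, in the 20-cell (13 libraries), early gastrula (29) and late gastrula (38) embryos, with lines at medians. Row-200, row-1258 and row-1518 have a few libraries far above the others in each embryo, row-585 has 2 such libraries in early gastrula, and row-352 is high in all gastrula libraries.

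The 3 members called at 20 cells without the filter had a large part of their counts in a pair of libraries in each embryo. In the 20-cell embryo libraries r15 and r16 held 225 of the 305 counts of row-200 (73.8%), though they held 11.1% of all counts. In early gastrula r26 and r4 held 53.6% (against 7.24% of all counts), and in late gastrula 2r33 and r11 held 746 of 1228 (60.7%, against 5.12%). Row-1258 had 58 of 100 counts, 30 of 68 and 257 of 525 in the same 3 pairs of libraries, and row-1518 had 59.5%, 37.1% and 54.2% of its counts. In the 20-cell embryo row-1518 had 92 counts in r15 and 8 in r16, and 59 in the deep library 3r17, at 1375 CPM there. These libraries were picked because row-200 is high there, so its own shares are a description. Library names are numbers in the titles and link no cell of an embryo to a cell of another.

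In all, 12 members had both 2r33 and r11 among their 3 highest late libraries, a set found after the values were seen. Other rows were not compared for this, so the set is not shown to be particular to the members. Besides row-200, row-1258 and row-1518 these were row-591, row-1489, row-1300, row-1181, row-1302, row-1206, row-1486, row-256 and row-258. Row-256 was the most confined, with 43 of 66 late counts (65.2%), 5 of 6 early counts and 11 of 13 counts at 20 cells in the pairs above. Row-1486, row-258, row-1302 and row-1206 had 53.03%, 54.5%, 40.96% and 40.5% of their late counts in 2r33 and r11, on 66, 55, 83 and 74 counts. Row-591, row-1300, row-1181 and row-1489 were spread wider, at 22.2%, 21.5%, 13.3% and 9.55%.

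A second set was high in other late libraries, and it too was not compared with other rows. Row-593 had 214 of its 344 late counts (62.2%) in libraries 2r20 and r2, which hold 5.13% of all counts, and 10 of 13 early counts in r10 and r13. Row-986 had 52.7% of 220 late counts in 2r20 and r2 and 15 of 18 early counts in r10 and r13. Its neighbour in the table, row-987, had 29 of 92 late counts there. Row-753 and row-168 also had 2r20 and r2 among their highest libraries, with 24.1% and 12.0% of late counts in them. At 20 cells row-593 and row-986 had 8 and 5 counts, too few to place. Over the list, 19 of the 95 members with at least 50 late counts had at least 50% of them in 3 libraries, against 6.63% of the rows with at least 100 CPM in gastrula and as many late counts. In early gastrula 5 of 49 had, against 3.04% of such rows. The 3 deepest libraries held 22.4% of all counts in late and 22.7% in early gastrula.

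Correlations between members over the libraries of an embryo spread widely to both sides. For the 57 members with at least 200 late counts, the median Spearman correlation of log2(CPM + 100) over 1596 pairs was 0.093 in the 20-cell embryo (17 libraries), 0.019 in early gastrula (33) and 0.042 in late gastrula (40). Single pairs ran from -0.74 to 0.89 at 20 cells, -0.78 to 0.76 in early and -0.74 to 0.81 in late gastrula. These medians do not show how many pairs varied together. Libraries of an embryo share its preparation and differ in depth, so these values are descriptions, and the pairs named were chosen after they were seen. Row-717 and row-718, next to each other in the table, had 0.53, 0.62 and 0.81 in these 3 embryos. Row-200 and row-1258 had 0.68, 0.54 and 0.68, and row-114 and row-557 had 0.65, 0.45 and 0.76. Row-352 and row-399 had 0.21, 0.54 and 0.77. Row-352 and row-717 ran opposite in late gastrula, at -0.74, with -0.31 at 20 cells and -0.18 in early gastrula.

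Some members stand next to each other in the table, which is given as a description and was not compared with other rows. There are 7 pairs and 1 run of 4, row-1518 to row-1521. The pairs were row-359 and row-360, row-405 and row-406, row-568 and row-569, row-717 and row-718, row-820 and row-821, row-986 and row-987, and row-1036 and row-1037. The files do not say whether neighbouring rows are neighbouring genes, and reads that could map to near-identical copies may be split between rows. Members of a run did not all share a course. Row-1518 had 0, 10.6 and 0 CPM in 12-cell embryo 1, 12-cell embryo 2 and the 14-cell embryo and 1206 CPM at 20 cells, while row-1521 had 1113, 799 and 812 CPM and then 1860 CPM, and row-1519 had no count at 20 cells.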

How the data were processed

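The values are raw counts per row and blastomere library that the authors deposited, with no normalization. The tools listed, per the submitters' processing notes, are HTSeq 0.5.4p3, Bowtie2 2.1.0 and CASAVA 1.8, and no role is stated. Neither the build nor the kind of count (reads or molecular identifiers) is given in the sources used here. The table used here has 189 columns, all assigned to samples, and 1572 complete rows. A further incomplete line of 130 fields was not used, and 197 of the rows used held no count. Column totals are therefore totals of the rows used. A deposited list of 24249 gene models could not be paired with rows.

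Counts were summed per embryo and scaled to CPM outside the 6 dominant rows. No label names the culture of an embryo, so p-values measure only the spread between these embryos. Joining the 2 numbered 2-cell libraries into 1 embryo is an assumption. The 20-cell embryo was compared with 3 embryos of 12 and 14 cells by edgeR 4.0.16 (limma 3.58.1, R 4.3.3) with TMM scaling and filterByExpr, tested on simulated data, with DESeq2 1.42.0 as an alternative. Poisson and Clopper-Pearson intervals are exact (scipy 1.17.1). Carriers are expected shares after thinning without replacement to 2000 counts. A floor is 3 counts.

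Members, lists and tests were chosen with earlier results of these data known. Rows named are the 10 highest in gastrula, the 5 highest and 5 lowest by late over early ratio (with a prior of 3 counts), by 20-cell over gastrula level and by share of libraries, up to 5 called per direction, and 3 rows on each side of the 3-fold limit. Others are said to be chosen after their values were seen.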

Additional observations from a re-analysis of the deposited data

Results flagged for a closer look

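The 10 most abundant members and the share of counts in the members, with and without row-671, were looked at in the groups of 1 to 3 and of 6 to 10 cells, wherever embryos differed. In 6 of 23 such sets 1 embryo stood apart from its group, each time in the level of a single member. The gap to the nearest embryo, over the range of the group, was then above Dixon's critical value, which chance passes in about 1 of 20 sets. Row-671 had 4575 CPM in 3-cell embryo 2, while the other embryos of 1 to 3 cells had 121.1 to 281.0 CPM. Row-114 had 128.2 CPM, a single count, in 2-cell embryo B, against 0 in the others, a set that passes by construction. Row-114 also had 11192 CPM in 10-cell embryo 1, while the other embryos of 6 to 10 cells had 0 to 2286 CPM. Row-557 had 5409 CPM in 8-cell embryo 3, against 1181 to 2446 CPM. Row-1426 had 5460 CPM in 8-cell embryo 1, the only embryo of its group in the lower series, against 609 to 2900 CPM. Row-399 had 432 CPM in 9-cell embryo 1, against 0 to 181.7 CPM.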

How the results depend on the processing

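Of 52 alternatives over 9 results, 38 stayed within the limits set for a result and 14 did not. The count of members was 55 with a 5-fold limit in place of 3-fold, and leaving out each gastrula embryo in turn gave 58 without the late and 110 without the early one. Members higher at 20 cells numbered 3 without the filter on low counts, as against 0 with it, and every other setting called 0. Members at onset in 12-cell embryo 2 numbered 21 at 25% of the gastrula level and 13 with early gastrula as the measure. Members lower in late gastrula numbered 0 at 3-fold, 6 without the libraries that have a digit in the title and 1 to 4 without 1 gastrula library at a time. Members higher in late gastrula numbered 19 by median libraries, where 57 members could be counted, 20 of them higher by sums. The median share of late gastrula libraries with a member was 42.6% when thinned to 1000 counts, 33.1% with at least 2 counts required and 88.8% without thinning. In early gastrula it was 26.4% when thinned to 1000 counts and 16.9% with at least 2 counts. The cause of these differences was not tested, apart from depth and limits that the settings change by construction. Settings without library 3r17, without row-671 in the totals, without 1 gastrula library at a time and with median libraries were added after seeing the data. No paired analysis was possible because the 20-cell stage is 1 embryo, and replicate numbers given to libraries in accession order pair no samples. With 1 embryo at each of the last 3 stages, low levels in the shallow 12-cell embryo 1 and 14-cell embryo limit what can be seen there.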
